A study of Mus musculus with 64 samples.

Results

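The 30 genes described here are markers of hippocampal subfields and of the ventral pole of the hippocampus, followed in 8 comparisons of corticosterone (CORT) with vehicle. They were the rows of the deposited tables whose symbol is one of 10 granule cell genes (Prox1 to Lct), 7 CA1 genes, 9 genes of CA2 and CA3, and 4 ventral genes. All 30 were present in every table, among 18283 genes in the dorsal hippocampus (dHPC) and 21088 in the ventral hippocampus (vHPC). The animals were C57BL/6 mice of both sexes that drank CORT (25 mg/l in 1% ethanol) or vehicle (1% ethanol) from 2 months of age for 6 weeks. They were either hMet, heterozygous for the BDNF Val66Met allele, or WT. The 16 groups were therefore CORT and vehicle, each in hMet males, WT males, hMet females and WT females, in the vHPC and in the dHPC. The labels list 4 libraries per group and 64 in all, each pooling RNA from 2 animals, although a text among the labels speaks of 3 replicates. The series design names 2 weeks of treatment, male mice for the BDNF genotype and the ventral hippocampus alone, whereas the sample labels give both sexes and both regions. The question put to these genes was whether the CORT response of subfield markers differed by region, sex and genotype.

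The hippocampus is a chain of subfields with different principal neurons. Granule cells of the dentate gyrus send mossy fibers to CA3, whose pyramidal cells project to CA1, and CA2 lies between them. The same subfields carry different genes along the long axis, so that some genes mark the ventral pole. Corticosterone, the main glucocorticoid of rodents, acts on hippocampal neurons through the mineralocorticoid and glucocorticoid receptors, which are transcription factors. In whole dissected tissue a marker's level depends both on how many cells of the type are in the sample and on how much RNA each makes, and fewer cells and less RNA per cell cannot be told apart.

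Of the 30 genes, 8 passed the study's threshold (p under 0.05 and a fold change, FC, over 1.3) in at least 1 comparison, and 6 of the 8 have a promoter window. The promoters of Plk5, Pcp4 and Coch are shown because these 3 genes were called lower in hMet males of the vHPC. That of Bok, which was higher in hMet males of the dHPC, is shown because it alone of the 6 held the motif searched. Each line is 250 bases before to 50 bases after the gene's start in RefSeq on GRCm38.p6, read 5′ to 3′ on the gene's strand. Capitals mark the half-site of the glucocorticoid receptor, AGAACA or its reverse complement TGTTCT.
Plk5, chr10:80356209-80356508, plus strand: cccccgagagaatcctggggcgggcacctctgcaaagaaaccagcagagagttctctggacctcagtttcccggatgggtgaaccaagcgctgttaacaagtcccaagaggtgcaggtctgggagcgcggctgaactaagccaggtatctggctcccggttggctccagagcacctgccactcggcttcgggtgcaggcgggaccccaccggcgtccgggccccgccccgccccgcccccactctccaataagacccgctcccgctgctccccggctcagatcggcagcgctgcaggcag
Pcp4, chr16:96467356-96467655, plus strand: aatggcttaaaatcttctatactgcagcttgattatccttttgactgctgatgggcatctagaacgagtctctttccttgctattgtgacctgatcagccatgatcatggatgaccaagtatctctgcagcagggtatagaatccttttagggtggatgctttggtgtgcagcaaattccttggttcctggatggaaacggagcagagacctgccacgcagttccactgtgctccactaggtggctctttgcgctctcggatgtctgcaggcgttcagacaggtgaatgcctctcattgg
Coch, chr12:51593091-51593390, plus strand: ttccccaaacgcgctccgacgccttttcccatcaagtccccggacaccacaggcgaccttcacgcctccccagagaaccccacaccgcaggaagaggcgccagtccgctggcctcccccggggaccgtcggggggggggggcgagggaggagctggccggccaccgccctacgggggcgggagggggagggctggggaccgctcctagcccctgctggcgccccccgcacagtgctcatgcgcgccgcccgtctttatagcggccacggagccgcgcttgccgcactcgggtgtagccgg
Bok, chr1:93685325-93685624, plus strand: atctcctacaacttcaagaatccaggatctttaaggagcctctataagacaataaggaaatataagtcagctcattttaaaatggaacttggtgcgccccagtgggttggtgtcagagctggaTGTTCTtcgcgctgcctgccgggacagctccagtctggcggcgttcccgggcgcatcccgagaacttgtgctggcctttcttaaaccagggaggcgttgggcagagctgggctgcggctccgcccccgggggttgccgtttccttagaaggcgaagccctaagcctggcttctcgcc
The Bok window holds 1 half-site, which begins 127 bases before the start, and the other windows shown hold none. Of the 30 windows of the 23 members with an entry, 2 (6.67%) held a half-site, 1 of Bok and 1 of Dock10, against 6233 of all 32851 windows of the same length (19.0%). The full palindrome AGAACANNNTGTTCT was in 3 of all windows and in 0 of those of the members. No window was used for Calb1, Spink8, Pou3f1, Rgs14, Map3k15, Trhr and Grp. Base composition differed among the 4 windows, from 48.7% G and C in Pcp4 to 73.7% in Coch, with Bok at 56.3% and Plk5 at 66.7%.

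The levels of the members in the vHPC and dHPC were compared first, since they show where the labelled tissue sits on the long axis. The deposited average is a log2 CPM (read counts scaled to library size) over all libraries of a region, so it carries no spread and no test. Trhr, the receptor of thyrotropin-releasing hormone, averaged 4.07 log2 CPM in the vHPC and 0.60 in the dHPC, a difference of 3.46. Nr2f2, a nuclear receptor also called COUP-TFII, averaged 5.81 in the vHPC and 3.79 in the dHPC, a difference of 2.02. Grp, which encodes gastrin-releasing peptide, averaged 4.29 in the vHPC and 2.40 in the dHPC, a difference of 1.89. Even the smallest of these differences, that of Grp, exceeded those of 99.8% of the 18257 genes present in both regions. Coch, which encodes the extracellular matrix protein cochlin, showed almost no ventral enrichment, with 3.00 log2 CPM in the vHPC and 2.95 in the dHPC. Of 7 other ventral genes, 6 were higher in the vHPC, among them Cpne7 (8.26 in the vHPC, 5.74 in the dHPC) and Dcn (6.43 in the vHPC, 4.30 in the dHPC).

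Granule cell genes were lower in the vHPC in 9 of 10 cases, with a median difference of -0.90 against -0.01 over all genes. Lct, which encodes lactase, differed most, with 4.08 log2 CPM in the vHPC and 6.33 in the dHPC, a difference of -2.24. Dsp (desmoplakin, -1.36), Plk5 (a polo-like kinase family member, -1.15) and C1ql2 (a secreted protein of mossy fiber synapses, -1.13) were also lower by more than 1 log2 unit. Npnt (-0.93), Tdo2 (-0.88), Prox1 (the transcription factor that sets granule cell identity, -0.63), Trpc6 (-0.37) and Dock10 (-0.33) followed. Calb1, which encodes the calcium buffer calbindin and is also expressed by CA1 pyramidal cells and interneurons, was the exception at 0.12 (7.18 in the vHPC, 7.07 in the dHPC). Of 11 other granule cell genes, 10 were lower in the vHPC.

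The pyramidal cell genes did not move as one along the axis. In CA1, 3 of 7 genes were higher in the vHPC. Gpr161 (a receptor of the primary cilium) differed by 0.36, Fibcd1 by 0.25 and Mpped1 by 0.15, whereas Pou3f1 (a POU transcription factor, -1.18) and Wfs1 (the endoplasmic reticulum protein wolframin, -1.12) were lower, with Spink8 (-0.49) and Man1a (-0.28) between. In CA2 and CA3, 2 of 9 were higher, Nectin3 (a cell adhesion molecule, 0.42) and Amigo2 (0.18). Cacng5, an auxiliary subunit of AMPA receptors, differed by -1.48 and Iyd, iodotyrosine deiodinase, by -1.33. Rgs14 (-0.92), Pcp4 (-0.73), Bok (-0.70), Map3k15 (-0.66) and Cpne4 (-0.25) were also lower. The 5 other CA3 genes were higher in the vHPC, by 0.09 to 0.92, and 3 of 5 other CA2 genes were lower. Over the whole list 10 of 30 members were higher in the vHPC, against 48.1% of all genes.

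Levels of different genes were compared per kb of exon. On this scale of average log2 CPM per kb, Mpped1 (5.60 in the vHPC, 5.45 in the dHPC) and Fibcd1 (5.24 in the vHPC, 4.99 in the dHPC) were the highest members in the vHPC, while C1ql2 (4.79 in the vHPC, 5.92 in the dHPC) was the highest in the dHPC. Spink8, with only 821 exon bases, had 3.97 in the vHPC and 4.46 in the dHPC. Map3k15 was lowest in the vHPC at -1.36, and Trhr was lowest in the dHPC at -1.40. Before length correction 29 of 30 members averaged at least 1 log2 CPM in each region, Map3k15 missing it in the vHPC and Trhr in the dHPC. Markers of other tissue parts also differed by region, with 0 of 5 oligodendrocyte genes higher in the vHPC (median -1.18) and 4 of 5 mossy cell genes higher (median 1.00). Their part in the differences of the members was not tested.

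**Figure D1:**
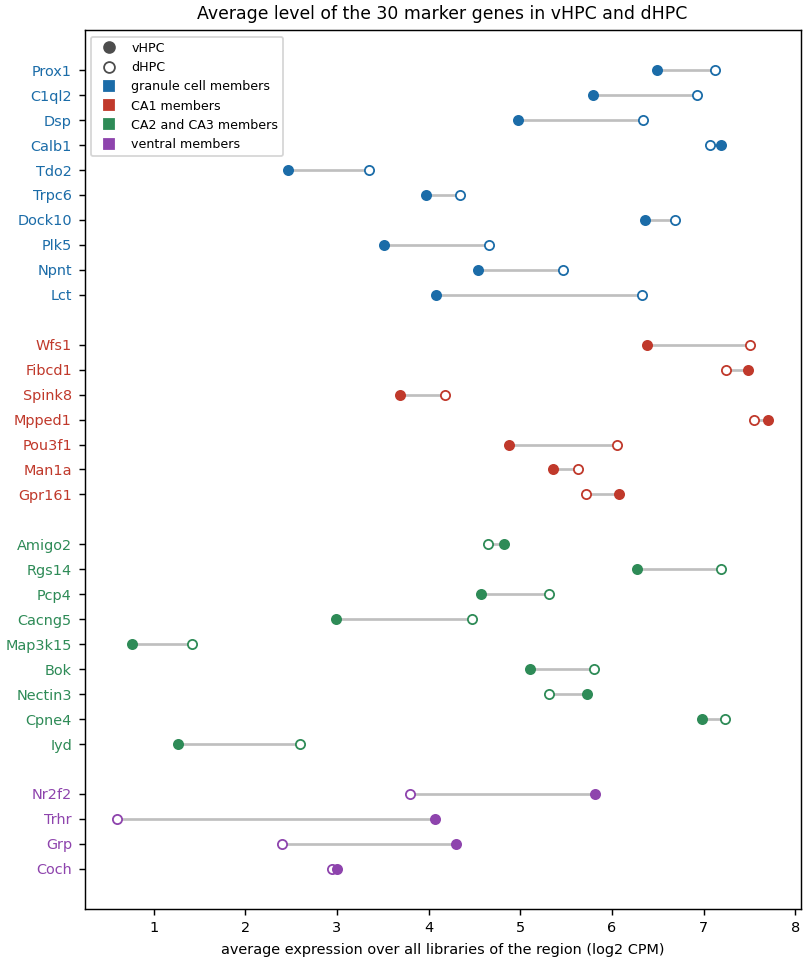
Average expression in log2 CPM (x axis) of the 30 members (rows, colored by subfield) in the vHPC (filled) and the dHPC (open), each a mean over all libraries of the region. Trhr, Nr2f2 and Grp lie 3.46, 2.02 and 1.89 log2 units to the right in the vHPC, Coch nearly coincides, and 9 of 10 granule cell genes lie to the left.

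The response to CORT was then read in each of the 8 comparisons. The tables give 1 value per comparison, so values per library could not be shown, and each log2 fold change (CORT over vehicle, read as positive when higher with CORT) is given with limma's moderated standard error (SE). In the vHPC, CORT changed 4 of 30 members in hMet males (1 higher, 3 lower, against 4.96% of all genes called), 1 in WT males (2.69% of all genes), 0 in hMet females (2.03%) and 1 in WT females (1.26%). In the dHPC it changed 5 members in hMet males (4 higher, 1 lower, against 2.93% of all genes), 1 in WT males (2.11%), 0 in hMet females (1.04%) and 0 in WT females (3.12%). Without the fold filter, 0 members had limma's p under 0.05 in the comparisons with 0 calls. These calls rest on the p before adjustment for the number of genes, as in the study. At this threshold the deposited values called more genes than the paper counts in each of the 8 comparisons, with 1047 in hMet males of the vHPC. Why they differ was not tested, and a member called here need not be among the genes the paper counted. The only member past a Benjamini-Hochberg adjusted p of 0.05 over all genes in any of the 8 deposited tables was Spink8 in hMet males of the vHPC.

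**Figure D2:**
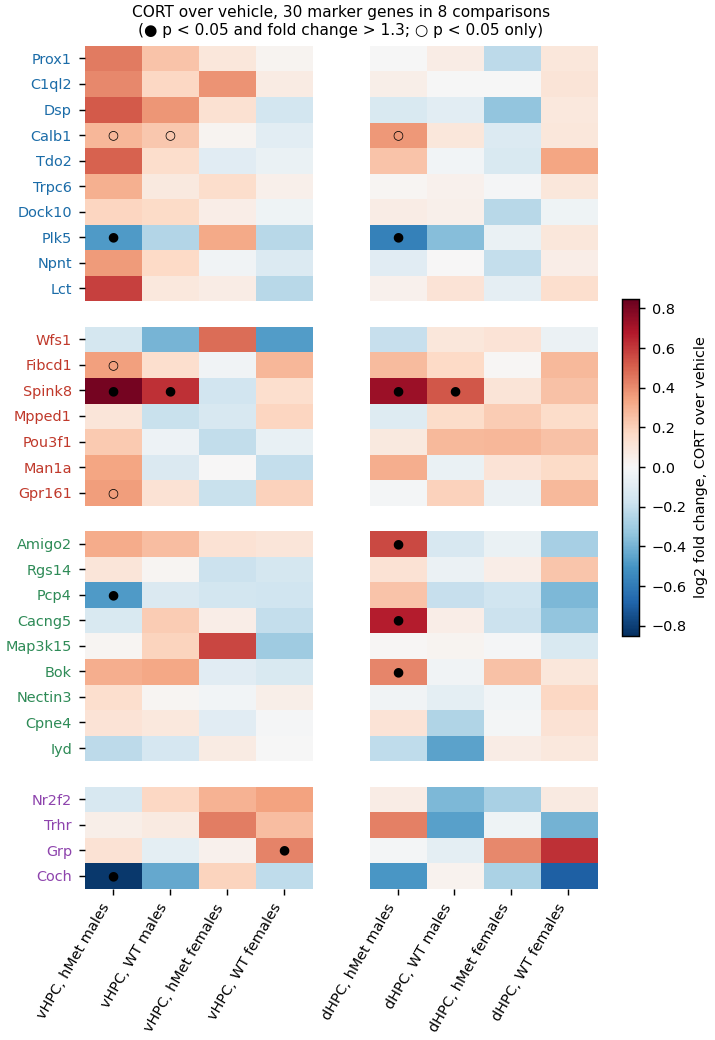
Log2 fold change of CORT over vehicle (color, red higher and blue lower with CORT) for the 30 members (rows) in 8 comparisons (columns, vHPC left and dHPC right), with filled dots at p under 0.05 and FC over 1.3 and open dots at p under 0.05 alone. Spink8 carries a filled dot in all 4 comparisons of males and in none of females.

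Spink8 encodes a Kazal-type serine peptidase inhibitor and marks CA1 pyramidal cells. It lies on chromosome 9 of GRCm38 from 109812280 to 109826633 (ENSMUSG00000050074, protein coding). In the vHPC its log2 fold change was 0.82 (SE 0.13) in hMet males, 0.62 (SE 0.13) in WT males, -0.16 (SE 0.13) in hMet females and 0.14 (SE 0.13) in WT females. These correspond to FC of 1.76 in hMet males and 1.54 in WT males, and limma's adjusted p was 0.00495 in hMet males and 0.163 in WT males. In the dHPC it was 0.73 (SE 0.21) in hMet males, 0.53 (SE 0.21) in WT males, 0.11 (SE 0.21) in hMet females and 0.25 (SE 0.22) in WT females. The 95% confidence intervals of both male comparisons in the vHPC (0.56 to 1.08 in hMet, 0.35 to 0.90 in WT) lay above the point estimates of both female comparisons, which included 0 in their own intervals.

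In the vHPC Spink8 was 1 of 3 genes of 21088 called in the test of a difference in response between males and females. The difference, males minus females averaged over the genotypes, was 0.73 (SE 0.13, 95% interval 0.46 to 0.99, adjusted p = 0.043 from limma's moderated errors), and it called 0.0142% of all genes. With unmoderated standard errors the adjusted p of Spink8 was 0.123 and the contrast called 0 genes. Within genotypes the difference was 0.98 (SE 0.18, adjusted p = 0.115) in hMet and 0.48 (SE 0.19, adjusted p = 1.00) in WT by the same test. Both estimates were positive and neither passed the threshold on its own. In the dHPC the difference was 0.45 (SE 0.21), with an adjusted p of 0.831 from limma's moderated errors. Averaged over all 4 comparisons, Spink8 was 0.35 higher with CORT in the vHPC (SE 0.06, adjusted p = 0.00917), among 0.626% of genes called in that test. In the dHPC the average was 0.40 (SE 0.10, adjusted p = 0.263), in a test that called 0.0273% of genes. The vHPC average passed the test no longer when either male comparison was left out, at 0.20 (adjusted p = 0.74) without hMet males and 0.27 (adjusted p = 0.235) without WT males, from limma's moderated errors.

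The male and female comparisons were then averaged apart, a choice made after the values had been seen. In the vHPC the mean over males was called for 3 of 30 members, against 3.58% of all genes, and the mean over females for 0, against 0% of all genes. Spink8 was higher by 0.72 (SE 0.09) in males, and its mean in females was -0.01. Calb1 was higher by 0.26 (SE 0.07) and Coch lower, at -0.63 (SE 0.18), in males. Limma's adjusted p was 0.000184 for Spink8, 0.0415 for Calb1 and 0.0462 for Coch. With unmoderated standard errors only Spink8 of the 3 kept its call, at an adjusted p of 0.065 for Calb1 and 0.0669 for Coch. At an unadjusted p under 0.05, the mean over males held 8 members in the vHPC (5 higher, 3 lower) and the mean over females 1. Counts of members at an unadjusted p come here without the share of all genes, so an excess of members was not tested. In the dHPC the male mean was called for 0 members (0.197% of all genes), with 3 at an unadjusted p under 0.05, and the female mean for 0 (0% of all genes), with 1. Spink8 had the smallest p of the members there, with a mean of 0.63 in males (SE 0.15, adjusted p = 0.0643 by limma's moderated errors). The male minus female difference itself passed the test in the vHPC for 1 of these genes, Spink8, and for 0 of the others. In the dHPC that difference passed for 0 members.

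**Figure D3:**
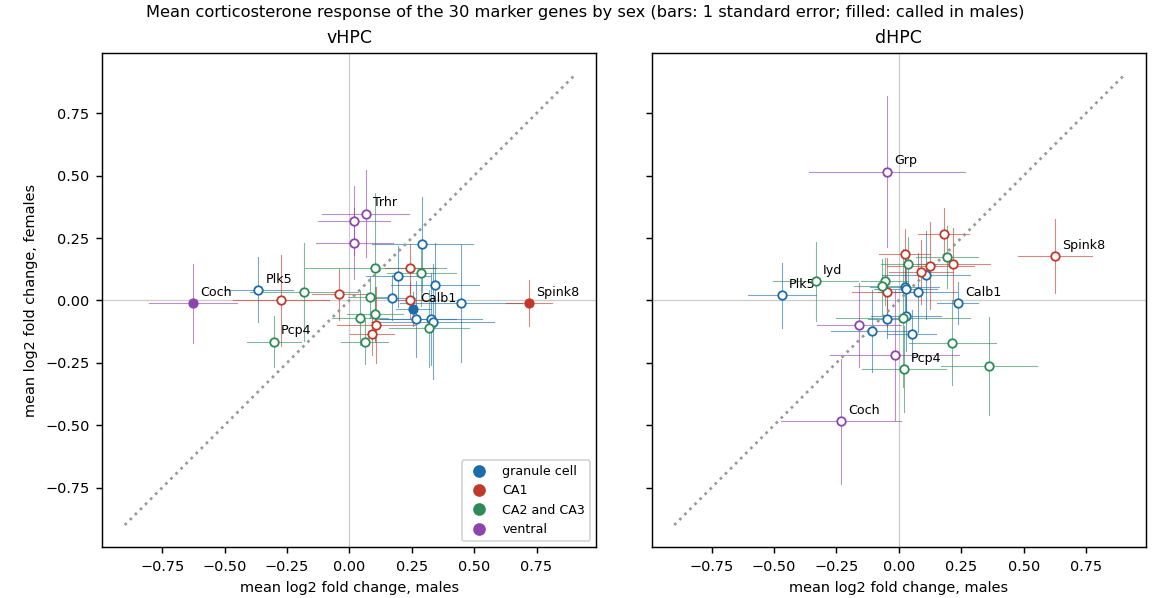
Mean log2 fold change of CORT over vehicle in males (x axis) and in females (y axis) for the 30 members in the vHPC (left) and dHPC (right), with bars of 1 SE, the dotted line of equality and filled points for members called in males. Spink8 lies far right of the line at 0.72 in males of the vHPC, and Coch far left at -0.63.

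Granule cell genes were mostly above 0 in males of the vHPC, and Calb1 alone of them was called higher, in the mean over males. In hMet males of the vHPC 9 of 10 had positive log2 fold changes, with a median of 0.39 against -0.01 over all genes, and 9 of 10 were positive in WT males, with a median of 0.16. Lct (0.58, SE 0.35), Dsp (0.52, SE 0.34), Tdo2 (0.50, SE 0.28), Prox1 (0.44, SE 0.24) and C1ql2 (0.41, SE 0.28) had larger estimates than Calb1 (0.28, SE 0.10) in hMet males, but of the 9 only Calb1 had an unadjusted p under 0.05 (limma's adjusted p = 0.12). Npnt (0.36), Trpc6 (0.30) and Dock10 (0.18) lay in the same range. CA1 members were also mostly positive in hMet males of the vHPC (6 of 7, median 0.34), but not in WT males (3 of 7, median -0.05). Of the CA2 and CA3 members, 6 of 9 were positive in hMet males (median 0.11) and 7 of 9 in WT males (median 0.09). All these genes were measured in the same libraries, so their signs are not independent of each other. In females of the vHPC 8 of 10 granule cell genes were positive in hMet (median 0.08) and 3 of 10 in WT (median -0.07). In the dHPC 6 of 10 were positive in hMet males, 6 in WT males, 0 in hMet females (median -0.12) and 9 in WT females (median 0.10), with 0 called in either group of females.

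Calb1 is the granule cell member with the smallest SE in the vHPC. Its log2 fold change there was 0.28 in hMet males, 0.23 in WT males (SE 0.10), 0.03 in hMet females and -0.09 in WT females. In the dHPC it was 0.37 in hMet males (SE 0.12, limma's adjusted p = 0.528), 0.10 in WT males, -0.12 in hMet females and 0.09 in WT females. None of these reached an FC of 1.3, the nearest being 1.29 in hMet males of the dHPC. The difference between males and females was 0.29 in the vHPC (SE 0.10, adjusted p = 0.291 by limma's moderated errors).

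In males Plk5 had the opposite sign to the other granule cell genes of the vHPC. In hMet males it was lower with CORT by limma's test, at -0.48 (SE 0.19, adjusted p = 0.171) in the vHPC and -0.58 (SE 0.19, adjusted p = 0.584) in the dHPC, and the 6 other comparisons did not pass. The other values were -0.25 in WT males, 0.32 in hMet females and -0.24 in WT females in the vHPC. In the dHPC they were -0.36 in WT males, -0.06 in hMet females and 0.10 in WT females. The male minus female difference in hMet mice was -0.81 in the vHPC (SE 0.26, adjusted p = 0.202 by limma's moderated errors), with estimates on opposite sides of 0. Averaged over males Plk5 was -0.36 in the vHPC (adjusted p = 0.134) and -0.47 in the dHPC (adjusted p = 0.205), by limma's moderated errors, and neither passed.

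**Figure D4:**
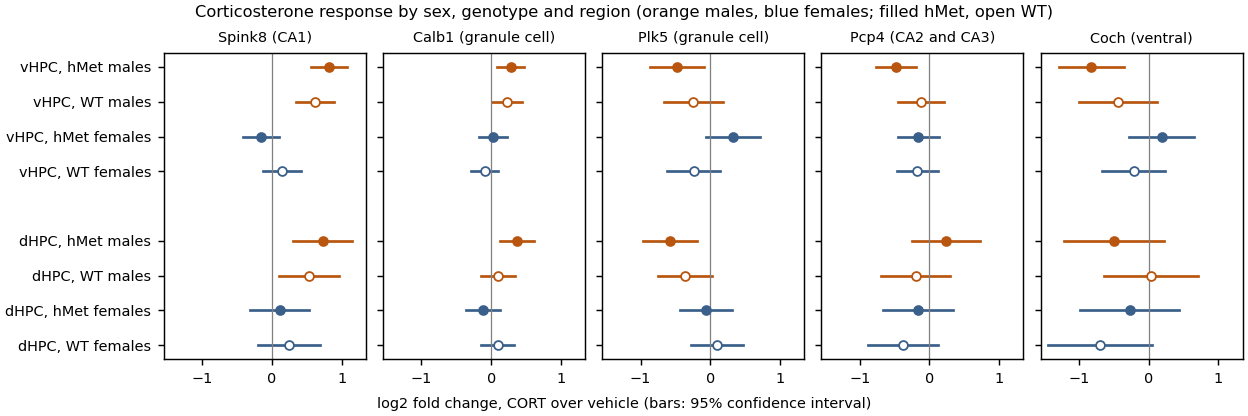
Log2 fold change of CORT over vehicle with its 95% confidence interval (x axis) for Spink8, Calb1, Plk5, Pcp4 and Coch in the 8 comparisons (rows), males in orange and females in blue, hMet filled and WT open. The intervals of Spink8 exclude 0 in each male comparison and include it in each female comparison.

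Among the other CA1 genes, Gpr161 and Fibcd1 had p under 0.05 in hMet males of the vHPC below the fold threshold. Gpr161 was 0.36 (SE 0.10, limma's adjusted p = 0.0872) in hMet males, 0.13 in WT males, -0.19 in hMet females and 0.20 in WT females. Its difference between the sexes differed between the genotypes by 0.62 (SE 0.21), the smallest p of the CA1 genes in that contrast, with an adjusted p of 0.767 from limma's moderated errors. Fibcd1, a membrane protein with a fibrinogen-like domain, was 0.35 (SE 0.14, limma's adjusted p = 0.181) in hMet males and 0.28, with the same SE, in WT females. Wfs1 pointed down in 3 of 4 vHPC comparisons (hMet males at -0.15, WT males at -0.39 and WT females at -0.48) and up in hMet females (0.48), with SE of 0.26 to 0.29 and 0 calls. Pou3f1 was positive in all 4 comparisons of the dHPC (0.08 in hMet males, 0.28 in WT males, 0.28 in hMet females and 0.25 in WT females), with a mean of 0.22 (SE 0.07, adjusted p = 0.506, limma). Its vHPC minus dHPC difference of the mean response, -0.25 (SE 0.09), had the smallest p of the CA1 genes in that contrast. Mpped1 and Man1a stayed between -0.20 and 0.34 in all comparisons.

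The genes of CA2 and CA3 held 3 of the 5 calls in hMet males of the dHPC. There Cacng5 was higher by 0.67 (SE 0.28, adjusted p = 0.704), Amigo2 by 0.56 (SE 0.25, adjusted p = 0.743) and Bok, a BCL family protein, by 0.41 (SE 0.17, adjusted p = 0.712) in limma's test. Amigo2 is a cell adhesion protein that marks CA2. The same genes in the other dHPC comparisons ran from -0.13 to 0.06 in WT males, from -0.19 to 0.25 in hMet females and from -0.34 to 0.10 in WT females. The hMet minus WT difference in males was 0.70 for Amigo2 (SE 0.35, adjusted p = 0.933 by limma's moderated errors), and the male minus female difference was 0.62 for Cacng5 (SE 0.28, adjusted p = 0.786). In hMet males of the vHPC these genes were -0.13 for Cacng5, 0.31 for Amigo2 and 0.31 for Bok, none with p under 0.05. Rgs14, a regulator that limits plasticity in CA2, Nectin3, Cpne4, Map3k15 and Iyd were called in 0 of 8 comparisons.

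Pcp4, a small calmodulin-binding protein of CA2 and of granule cells, was lower with CORT in hMet males of the vHPC by limma's test (-0.48, SE 0.14, adjusted p = 0.0912). Its estimate was negative in the 3 other vHPC comparisons, at -0.13 in WT males, -0.16 in hMet females and -0.17 in WT females. The mean over the vHPC was -0.23 (SE 0.07, adjusted p = 0.133, limma). In the dHPC Pcp4 was 0.24 in hMet males, -0.20 in WT males, -0.17 in hMet females and -0.38 in WT females, with SE of 0.24 each.

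Of the ventral genes, the 3 enriched in the vHPC showed 1 call, and Coch was lower in hMet males of the vHPC. Its value was -0.82 (SE 0.22, limma's adjusted p = 0.0721, FC of 0.57) there, -0.43 (SE 0.27) in WT males, 0.19 (SE 0.23) in hMet females and -0.22 (SE 0.22) in WT females. The male minus female difference was -0.61 (SE 0.24, adjusted p = 0.329, limma), and -1.01 (SE 0.32, adjusted p = 0.20) within hMet. In the dHPC Coch was -0.50 in hMet males, 0.03 in WT males, -0.27 in hMet females and -0.70 in WT females, with SE from 0.33 to 0.36. Grp was higher in WT females of the vHPC (0.42, SE 0.20, limma's adjusted p = 1.00), against -0.08 in WT males there. Nr2f2 was 0.30 in hMet females and 0.34 in WT females of the vHPC, with a mean over females of 0.32 (SE 0.14, adjusted p = 0.998, limma). In males of the vHPC Nr2f2 was -0.14 in hMet and 0.18 in WT. Trhr was 0.43 in hMet females, 0.26 in WT females, 0.05 in hMet males and 0.08 in WT males of the vHPC, with 0 calls.

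Genotype left no member called. The hMet minus WT difference called 0 of 30 members in the vHPC (0% of all genes) and 0 in the dHPC (0%), and at an unadjusted p under 0.05 limma's moderated errors gave 1 member in the vHPC and 0 in the dHPC. That vHPC member was Wfs1, at 0.60 (SE 0.27, adjusted p = 1.00). The difference of the sex differences between genotypes called 0 members in each region (0% of all genes), with 2 at an unadjusted p under 0.05 in the vHPC (Plk5 and Gpr161) and 0 in the dHPC. The male minus female difference in the dHPC called 0 members and 0.00547% of all genes, with 4 members at an unadjusted p under 0.05. For the counts at an unadjusted p in these contrasts the share of all genes is not given, so an excess of members was not tested. The sex difference within hMet and within WT, and the genotype difference within males and within females, called 0 members and 0% of all genes in both regions. The vHPC minus dHPC difference of the mean response called 0 members and 0% of 18257 genes, with 1 (Pou3f1) at an unadjusted p under 0.05. For Spink8 that difference was -0.05 (SE 0.12, 95% interval -0.30 to 0.21), so its response was not shown to differ between the regions. Tissue of both regions may come from the same animals, which this test does not take into account.

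Other genes of the same subfields showed few calls. Among 11 other granule cell genes, 1 was higher in hMet males of the vHPC, Glis3 (0.45), and 9 had positive values with a median of 0.27. In WT males of the vHPC 1 was higher, Pdzd2 (0.41), which was also higher in WT males of the dHPC (0.43). Among 5 other CA1 genes Lefty1 (0.41) was higher in hMet males of the vHPC and Ccn3 (0.55) in WT females of the dHPC. Of 5 other CA2 genes, Necab2 (0.81) was higher in hMet males of the dHPC and Avpr1b (-1.20) was lower in WT females of the vHPC, where its average was only -1.89 log2 CPM. Of the 5 other CA3 genes 0 reached the fold threshold with p under 0.05 in any comparison, but 3 had p under 0.05 in hMet males of the vHPC, all higher (Grik4 at 0.37, Ociad2 at 0.34 and Galnt3 at 0.32). Ociad2 passed limma's adjustment over all genes there (adjusted p = 0.0387). Among 7 other ventral genes Cpne7 was higher in hMet males (0.62) and WT females (0.45) of the dHPC and Col5a1 was lower in both (-2.08 in hMet males, -1.07 in WT females). Of the genes named from these subfield and ventral lists, Ociad2 alone had an adjusted p under 0.05. Mossy cell genes held 2 calls in hMet females of the vHPC, both higher (Calb2 at 0.45 and Csf2rb2 at 0.42), and 1 lower in hMet males (Drd2, -0.52).

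Markers of other cell types moved beside the calls of the members. In hMet males of the vHPC 4 of 5 microglia genes and 4 of 5 oligodendrocyte genes were lower (medians -0.39 and -0.54), and 2 of 5 astrocyte genes were lower. Those astrocyte genes were Aqp4 (-0.80, limma's adjusted p = 0.00955) and Gfap (-0.72), whereas Aldoc was higher at 0.26, below the fold threshold (adjusted p = 0.0401). In WT males of the vHPC 1 of 5 microglia genes and 1 of 5 astrocyte genes, Aqp4 (-0.72), were lower, and Aldoc was at 0.33. The microglia median there was -0.34, against -0.09 in hMet females and 0.00 in WT females. In hMet males of the dHPC, where 5 members were called, Aqp4 (-0.58) and P2ry12 of microglia (-0.46) were lower, and Aldoc (0.43) and Mobp of oligodendrocytes (0.48) were higher. In WT males of the dHPC Aqp4 (-0.56), Gfap (-0.53) and P2ry12 (-0.44) were lower, and Aldoc was at 0.35. Pan-neuronal genes were called in 0 of 8 comparisons, with medians of 0.10 in hMet males and 0.08 in WT males of the vHPC. Below the fold threshold, 3 of these 6 genes had limma's p under 0.05 in hMet males of the vHPC and 1 in WT males, all higher. In the dHPC 2 were higher in WT females and 1 lower in hMet males at that p. The part of all these cell type markers in the results of the members was not tested. In WT females of the dHPC, where 0 members were called, 4 of 5 genes of the adjacent thalamus were lower (median -0.81). In hMet males of the dHPC, where 5 members were called, 4 of 5 thalamus genes had positive values (median 0.48) and 0 were called. Their medians in the dHPC were 0.16 in WT males and -0.21 in hMet females. The part of this tissue in the results of the members was not tested either. Genes of the choroid plexus, a tissue next to the hippocampus, were called in 0 comparisons. Their medians ran from -1.15 to 2.51, with a median SE from 1.37 to 1.91.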

How the data were processed

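RNA-seq libraries (stranded, single-end) came from the dHPC and vHPC. Per the paper's methods, the authors discarded reads with a score under 15, aligned the rest to GRCm38 (mm10 in the submitters' processing notes) with STAR, counted them per gene with featureCounts and fitted limma-voom, in versions not given in the sources used here. The deposited tables, 1 for each comparison, hold log2 values for the mean level of a gene, for its CORT change and for the error of that change before limma's moderation. They also hold limma's moderated t, a score as the authors computed it, and a p-value with its adjustment, both deposited by the authors. These comparison columns were used because no values per library were analysed here, and depth per library is therefore not given. The tables do not name the direction of the fold change.

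The 30 members and all lists were chosen with earlier results of these data known. The moderated standard error was the fold change over t. Recomputed from t and the total degrees of freedom, the p-value matched the deposited one to a relative deviation of 1.63e-06. Contrasts over the 4 comparisons of a region (mean response, males minus females, hMet minus WT, their interaction, and the differences within each sex and genotype) took the comparisons as independent, used the deposited degrees of freedom, were two-sided and were adjusted by Benjamini-Hochberg over all genes of the region, with calls at an adjusted p under 0.05. The mean response and the male minus female contrast were run on simulated data. The simulation drew the comparisons as independent, with errors taken from the deposited ones, so it could not test those assumptions. The residual degrees of freedom were 24 in the dHPC, as 32 libraries in 8 groups leave, and 22 in the vHPC, where the unmoderated standard error of WT males was a median 1.09 times that of WT females. What accounts for this is not given in the sources used here. With nothing to tie libraries to litters or days, the p-values measure only the spread between libraries, each a pool of 2 animals.

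Named genes were members that passed a call or had the smallest p of their subfield in a contrast, and, of the other lists, up to 3 called genes of smallest p. Of the called genes of the lists, 1 is not reported here. Gene positions and exon lengths came from GENCODE M21 and promoter windows from RefSeq on GRCm38.p6. Alternatives were other thresholds, a minimum of 1 log2 CPM, unmoderated standard errors, centring on the median gene, inverse-variance weights and the omission of each comparison. The means over each sex and the level per kb were added after seeing the data. Computation used scipy 1.17.1, pandas 2.3.3 and numpy 2.4.6 under Python 3.11.15, and figures matplotlib 3.10.9.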

Additional observations from a re-analysis of the deposited data

Results flagged for a closer look

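Spink8 in the vHPC was the only member called in a test of the difference in CORT response between groups. Its log2 fold change was 0.73 higher in males than in females (SE 0.13, adjusted p = 0.043 from limma's moderated errors over 21088 genes). The values were 0.82 in hMet males, 0.62 in WT males, -0.16 in hMet females and 0.14 in WT females, so that both male comparisons lay above both female comparisons. With unmoderated standard errors the adjusted p was 0.123. Single libraries could not be screened for outlying values, since the tables hold 1 value per comparison.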

How the results depend on the processing

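Calls of members depended mostly on the threshold. At an adjusted p under 0.05 (limma), 1 member was called in hMet males of the vHPC and 0 in WT males and WT females of the vHPC and in hMet males and WT males of the dHPC. At p under 0.01 and FC over 1.3, 2 members were called in hMet males of the dHPC, 0 in WT males of the dHPC and 0 in WT females of the vHPC. For the counts at this setting and at the adjusted p the share of all genes is not given, so an excess of members was not tested. Without the fold filter, 1967 of all 21088 genes were higher and 1894 lower in hMet males of the vHPC, and 7 members were called. In WT males there 724 genes were higher and 803 lower, and 2 members were called. With unmoderated standard errors 0 were called in WT females of the vHPC, 0 in the male minus female difference in the vHPC and 1, Spink8, in the mean over males of the vHPC, where the adjusted p of Calb1 was 0.065 and that of Coch 0.0669. The mean response in the vHPC called 0 members without hMet males and 0 without WT males. Its value for Spink8 ran from 0.20 to 0.53 over 8 alternatives and stayed positive. A minimum of 1 log2 CPM and centring on the median gene changed no count of called members by more than 1.5 times, nor did inverse-variance weights or leaving out a female comparison in the mean response. The cause of these changes was not tested.

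No paired analysis was possible because the deposited tables hold no values per library, and leaving out single libraries was not run for the same reason. The standard errors of the male minus female difference treat 4 comparisons of 1 fit as independent. The standard errors of Map3k15, from 0.39 to 0.43 in the vHPC, were the largest of the members there.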
